A study of Danio rerio with 2 samples.

Results

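The ETS transcription factors described here are fli1a, fli1b, erg, ets1, ets2 and elk3, the ETS genes beside etv2 that act in blood vessels. They were taken by name and make up 6 of the 25743 genes in the gene table shared by both libraries. ets1 is not named in that table. Its identifier, ENSDARG00000024431, is listed there under a clone name, CABZ01069595.1, and was matched through a reference gene table. The other identifiers are ENSDARG00000054632 for fli1a, ENSDARG00000040080 for fli1b, ENSDARG00000077304 for erg, ENSDARG00000103980 for ets2 and ENSDARG00000018688 for elk3. The count tables carry no genome coordinates, and none are given.

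ETS factors bind DNA through a shared winged-helix domain that recognises sites with a GGAA core, so that several members can occupy the same enhancer. Etv2 acts early and for a short time in the mesoderm that gives rise to blood vessels and blood. Fli1 and Erg are expressed with it or after it and maintain the endothelial programme, including genes of cell junctions and of the VEGF and Notch pathways. Ets1 and Ets2 are a closely related pair that responds to Ras and MAP kinase signalling, and Elk3 is a ternary complex factor that partners serum response factor and often represses.

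Single-cell RNA-seq was performed on GFP-positive cells sorted from zebrafish embryos at the 20-somite stage, with 1 library from heterozygous and 1 from homozygous etv2ci32Gt; UAS:GFP embryos. Both libraries were made from pools of embryos. The study reports that heterozygous and homozygous embryos were separated by phenotype. Whether cells of a heterozygous embryo entered the homozygous pool was not tested. In this line a gal4 gene trap interrupts the coding sequence of etv2, so that GFP marks cells that have transcribed the locus, all cells of both libraries carry at least 1 trapped allele, and the homozygous embryos have no intact allele. There was no wild-type library. fli1b lies next to etv2 on the same chromosome, and the study proposes that the inserted construct may have disrupted fli1b expression. An effect of the insertion on fli1b cannot be told apart here from loss of Etv2. The values are counts of unique molecular identifiers (UMIs), each standing for 1 captured mRNA, and levels are given as counts per 1000000 UMIs (CPM) of a group of cells. Because each genotype has 1 library, there is no replicate check and no test. Intervals in parentheses are exact 95% intervals from the counts (Poisson for a level, conditional for a ratio, Clopper-Pearson for a share) and cover counting error only. A gene was called at a ratio of 2 or more, or of 0.5 or less, when both groups together held at least 50 counts.

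Cells were taken as barcodes with at least 2500 UMIs, over 200 but no more than 3500 genes, and mitochondrial counts of 5% or less. They numbered 1608 in the heterozygous library (median 10037 UMIs) and 473 in the homozygous library (median 13079 UMIs), and the 2 sets shared 0 barcodes. No doublet caller was run. The cells fell into 12 clusters, formed without the ETS genes and named from marker lists, so class names need not match those of the study. In the heterozygous library there were 376 endothelial-like, 223 endothelial progenitor (EPC)-like, 228 macrophage-like, 257 red blood cell (RBC)-like, 75 lateral plate mesoderm (LPM)-like, 34 tailbud-like, 20 cardiomyocyte-like, 20 myocyte-like, 81 neural-like and 51 epidermal-like cells. The homozygous library held 2, 4, 2, 125, 83, 26, 63, 22, 23 and 20 cells of these classes in the same order. A cluster of 243 heterozygous and 103 homozygous cells, led by si:ch211-11n16.3, ms4a17a.10 and pmaip1, remained unnamed. The endothelial marker list had 0 of 11 genes at 0 in heterozygous endothelial-like cells (3181 CPM in sum), whereas 4 of 11 were at 0 in the 2 homozygous cells of that name (629 CPM in sum). The former held 3242039 UMIs together and the latter 30225, so the numbers of markers at 0 depend on depth as well.

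RNA free in the suspension was estimated at 4.24% of a heterozygous cell's counts and 2.05% of a homozygous cell's counts. In a heterozygous cell this corresponds to 6.16 CPM of fli1a, 4.31 CPM of fli1b, 2.88 CPM of erg, 0.298 CPM of ets2 and 0.232 CPM of elk3. For etv2 it corresponds to 11.6 CPM, beside 11.3 CPM in RBC-like, 9.63 CPM in neural-like and 8.81 CPM in epidermal-like heterozygous cells. Whether single etv2 UMIs in a cell came from free RNA was not tested. Neural-like cells, which are not known to use fli1a or fli1b widely, held 2 counts of each in 81 cells, a level of 2.41 CPM (0.292 to 8.70). Shares of cells with a UMI are given after thinning every cell to 5000 UMIs, which left out 319 heterozygous and 76 homozygous cells with fewer, and the unthinned share is given beside them. After thinning, 0 of 69 neural-like cells held fli1a or fli1b, which allows a share of up to 4.35% when the limit is set at 3 cells (5.21% as the Clopper-Pearson upper limit), and 1 of 69 held erg.

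In the heterozygous library the vascular classes had the highest levels of fli1a, fli1b and erg, but in different orders. fli1a, an endothelial and haematopoietic regulator, stood at 469 CPM (446 to 494) in endothelial-like, 262 CPM (241 to 285) in EPC-like, 108 CPM (97.3 to 120) in RBC-like, 101 CPM (89.6 to 114) in unnamed and 101 CPM (89.3 to 114) in macrophage-like cells. Tailbud-like cells followed with 63.9 CPM (21 counts), cardiomyocyte-like cells with 52.6 CPM (7 counts) and LPM-like cells with 26.9 CPM (22 counts), while neural-like, epidermal-like and myocyte-like cells together held 4 counts. Endothelial-like cells exceeded EPC-like cells by 1.79-fold (1.62 to 1.98) and EPC-like cells exceeded RBC-like cells by 2.43-fold (2.13 to 2.78), whereas the RBC-like, unnamed and macrophage-like levels could not be separated beyond counting error. A UMI of fli1a was found in 88.9% (84.7 to 92.4) of thinned endothelial-like and 64.6% (57.1 to 71.6) of thinned EPC-like cells (92.8% and 82.1% unthinned, at median depths of 8299 and 10126 UMIs, against 2.47% of neural-like cells at 10142 UMIs). In RBC-like cells the thinned share was 42.1% (64.2% unthinned), so that fli1a was spread over many cells of that class and reached 8 counts at most in 1 of them.

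fli1b, the duplicate copy of fli1, was instead highest in EPC-like cells at 332 CPM (308 to 357), followed by endothelial-like cells at 267 CPM (250 to 286), tailbud-like cells at 128 CPM (92.2 to 173) and macrophage-like cells at 88.3 CPM (77.4 to 100.3). Each of these steps exceeded counting error, with 1.24-fold (1.12 to 1.37) between EPC-like and endothelial-like cells, 2.09-fold (1.53 to 2.92) down to tailbud-like and 1.45-fold (1.02 to 2.02) down to macrophage-like cells. LPM-like cells had 22.0 CPM (18 counts), unnamed cells 14.7 CPM (39 counts) and RBC-like cells 8.71 CPM (5.87 to 12.4) beside the 4.31 CPM estimated for free RNA. Thinned shares with a UMI were 73.6% of EPC-like, 67.9% of endothelial-like, 33.3% of tailbud-like, 30.6% of macrophage-like and 3.83% of RBC-like cells, the last below both limits that the count of 0 in neural-like cells allows. The unthinned shares in the same order were 82.1%, 77.1%, 58.8%, 44.7% and 11.3%.

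**Figure D1:**
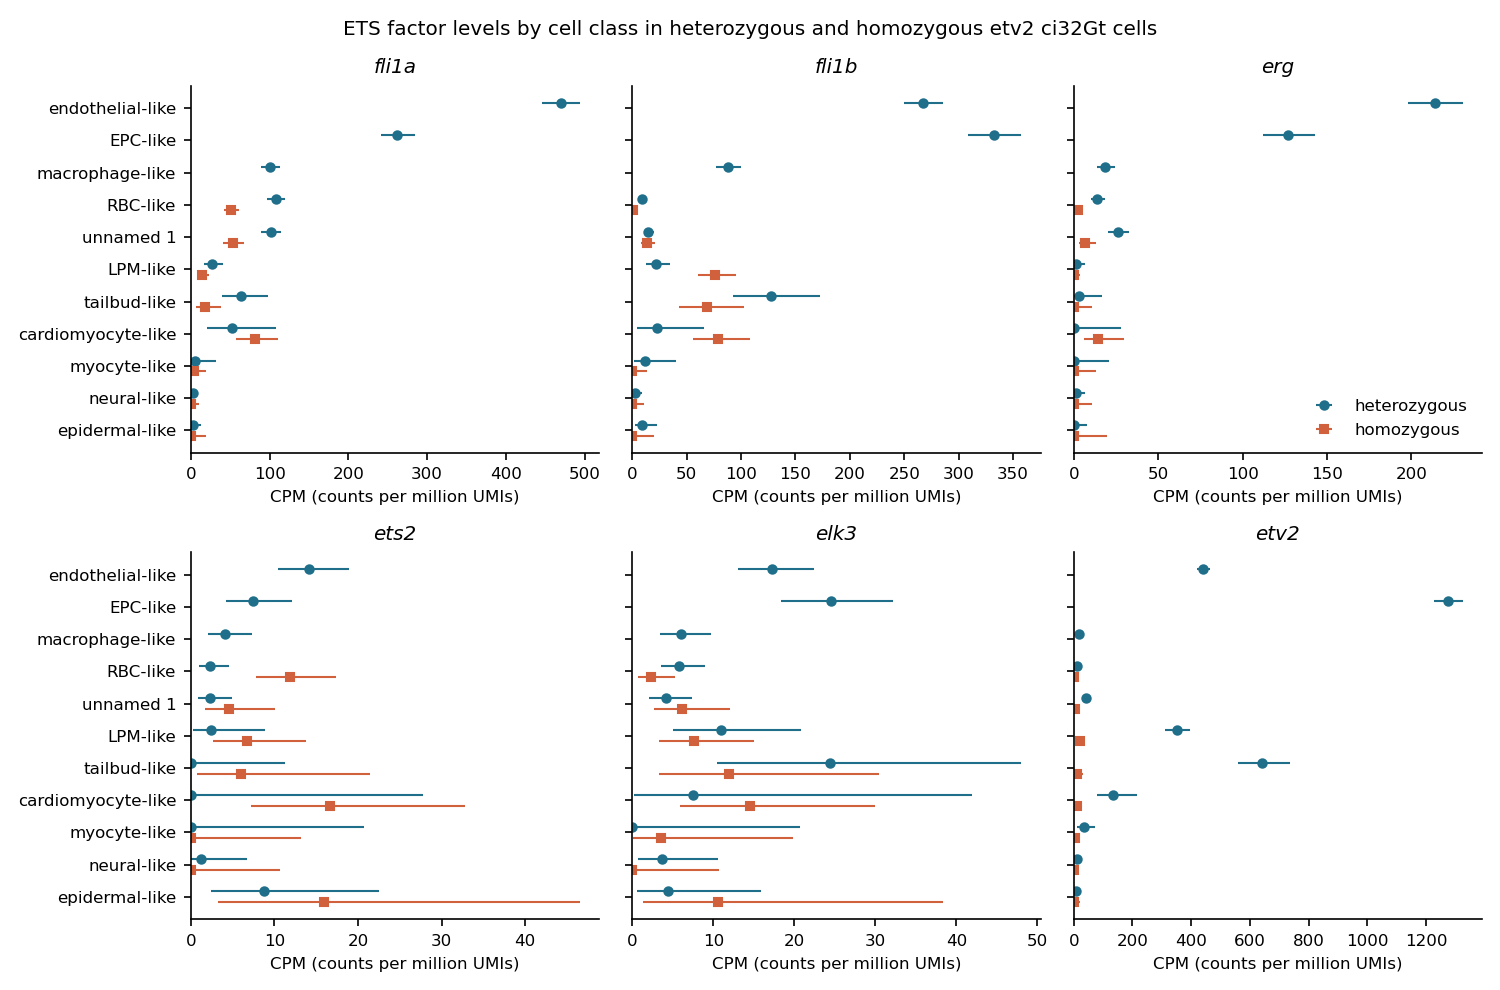
Level in CPM (x axis) of fli1a, fli1b, erg, ets2, elk3 and etv2 in each cell class (y axis), with circles for the heterozygous and squares for the homozygous library and bars for exact Poisson 95% intervals. Classes with fewer than 20 cells in a library are not drawn. fli1a and erg are highest in endothelial-like cells (469 and 214 CPM), fli1b and etv2 in EPC-like cells (332 and 1276 CPM).

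The split between the fli1 duplicates therefore differed by class. fli1a made up 92.5% of the fli1a and fli1b counts in RBC-like cells and 87.3% in unnamed cells, 63.7% (61.8 to 65.7) in endothelial-like, 53.4% in macrophage-like and 44.1% (41.4 to 46.9) in EPC-like cells, and 33.3% in tailbud-like cells. Counts of the copies depend on how the 3′ ends were annotated, so the split is compared between classes and not read as a ratio of transcripts. Within macrophage-like cells a finer clustering, examined after the values were seen, divided the class again. A cluster of 122 heterozygous cells led by lrmp and ncf1 had 165 CPM of fli1a and 43.7 CPM of fli1b, and a cluster of 106 cells led by cxcr3.2 had 31.3 CPM of fli1a and 137 CPM of fli1b. The ratio of the former to the latter was 5.27 (3.76 to 7.57) for fli1a, 4.81 (2.23 to 11.9) for erg and 0.320 (0.235 to 0.430) for fli1b, so fli1a and erg were higher in one cluster and fli1b in the other.

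erg, which maintains endothelial junctions and quiescence, was the member whose counts were most concentrated in endothelial-like cells, with 61.0% of its 1136 heterozygous counts there. Its level was 214 CPM (198 to 230) in endothelial-like and 127 CPM (112 to 143) in EPC-like cells, then 26.0 CPM (20.2 to 32.9) in unnamed, 18.7 CPM (13.9 to 24.7) in macrophage-like and 13.9 CPM (10.3 to 18.5) in RBC-like cells. Endothelial-like over EPC-like cells gave 1.69 (1.46 to 1.95) and EPC-like over unnamed cells 4.87 (3.73 to 6.44), and lower neighbours in the order could not be separated. LPM-like, tailbud-like and neural-like cells held 1 count each, and cardiomyocyte-like, myocyte-like and epidermal-like cells held 0. Thinned shares with a UMI were 56.8% of endothelial-like and 39.3% of EPC-like cells (68.4% and 51.1% unthinned), against 1.45% of neural-like cells.

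The remaining members had few counts. ets2 had 94 heterozygous counts, with 14.2 CPM (10.4 to 18.9) in endothelial-like, 8.81 CPM (4 counts) in epidermal-like, 7.42 CPM (16 counts) in EPC-like and 4.11 CPM (11 counts) in macrophage-like cells. elk3 had 179 counts, with 24.6 CPM (18.42 to 32.2) in EPC-like, 24.4 CPM (8 counts) in tailbud-like, 17.3 CPM (13.05 to 22.4) in endothelial-like and 10.99 CPM (9 counts) in LPM-like cells. For neither gene did any neighbouring pair of classes in this order differ beyond counting error. ets1 had 17 counts in 17 heterozygous cells, of which 7 were endothelial-like, 4 EPC-like, 3 macrophage-like, 1 LPM-like and 2 unnamed, and its class levels are not read further.

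Endothelial-like cells were then compared with all other heterozygous cells. 5 of the 6 members passed the minimum of 50 counts, ets1 being the exception, and 4 of these 5 were called higher, against 10.2% of the 8629 genes compared. The ratio was 6.6 (5.85 to 7.45) for erg, 4.19 (3.91 to 4.51) for fli1a, 4.04 (2.64 to 6.19) for ets2, 3.34 (3.06 to 3.66) for fli1b and 1.92 (1.37 to 2.65), short of the call, for elk3. The median over the 5 members was 4.04, beside 0.928 over all genes compared. EPC-like cells against all others gave 3 calls of the same 5, beside 7.27% of genes, namely fli1b at 3.95 (3.60 to 4.33), elk3 at 2.88 (2.05 to 4.0) and erg at 2.17 (1.88 to 2.48). fli1a at 1.56 (1.42 to 1.71) and ets2 at 1.40 (0.765 to 2.43) were not called, and the erg value dropped to 1.76 when single cells were weighted equally. The median of the members was 2.17, and that of all genes 0.906. Members were chosen as vascular ETS genes, so both counts describe them in these cells and do not set them apart from other vascular genes.

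Within endothelial-like cells, the cluster of 139 heterozygous cells led by cldn5b, flt1, kdrl and cdh5 was set against the cluster of 237 cells led by agtr2 and mrc1a. fli1a stood at 534 and 428 CPM, a ratio of 1.25 (1.13 to 1.38), and ets2 at a ratio of 4.38 (2.21 to 9.28) with 34 and 12 counts. fli1b at 0.896 (0.778 to 1.03), erg at 0.933 (0.797 to 1.09) and elk3 at 1.54 (0.882 to 2.71) had intervals that include 1, and etv2 was lower in the first cluster at 0.783 (0.70 to 0.875). Of these genes ets2 therefore differed most between the 2 endothelial-like clusters, on few counts.

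Across the 12 clusters of the heterozygous library, log2(CPM + 10) of each member with at least 200 counts was correlated with that of 4769 genes as a measure of likeness. The clusters share 1 library and differ in size and depth, so the values are a description. Closest to erg were tek, the angiopoietin receptor (Pearson r = 0.981), csf3b, a cytokine (0.971), and clec14a, an endothelial lectin (0.959). Closest to fli1a were iqgap2 (0.942), mapre1b (0.918) and amdhd2 (0.911), and closest to fli1b were amdhd2 (0.956), dusp5, a phosphatase of ERK (0.941), and asap1b (0.920). Between ETS genes the values were 0.896 for fli1a with erg, 0.80 for fli1b with etv2 and 0.534 for erg with etv2. fli1b thus followed the pattern of etv2 over clusters more closely than erg did.

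The question of how the members relate to etv2 was then put to single heterozygous cells. Cells thinned to 5000 UMIs were grouped by their etv2 UMIs into 816 cells with 0, 122 with 1, 118 with 2 to 3 and 233 with 4 or more. A thinned count of 0 does not mean absence, since the 816 cells held 143 etv2 counts before thinning (13.5 CPM). Levels in CPM are from the unthinned counts of the cells in each group. fli1b went over these groups from 40.01 CPM (36.3 to 44.0) to 160.1 CPM (139.8 to 182), 286 CPM (256 to 318) and 312 CPM (290.4 to 334). fli1a went from 111 CPM to 300.2, 386 and 283 CPM and erg from 27.2 CPM to 126, 164 and 135 CPM, so both were highest at 2 to 3 etv2 UMIs and lower again at 4 or more. elk3 stood at 6.43, 15.01, 18.5 and 18.7 CPM and ets2 at 3.41, 7.86, 16.9 and 7.02 CPM. Cells with etv2 at 4 or more over cells at 0 gave ratios of 7.79 (6.91 to 8.78) for fli1b, 4.95 (4.22 to 5.81) for erg, 2.91 (1.97 to 4.27) for elk3, 2.54 (2.31 to 2.79) for fli1a and 2.06 (1.10 to 3.73) for ets2. All 5 members with enough counts were called, beside 11.5% of the 7955 genes compared, and their median was 2.91 beside 0.964 over all genes. The value of ets2 rests on 18 and 36 counts and ranged from 1.76 to 2.37 over other settings.

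Shares of thinned cells with a UMI were compared between cells with 0 and cells with at least 4 thinned etv2 UMIs. They went from 15.3% to 74.2% for fli1b, from 33.1% to 68.2% for fli1a and from 10.0% to 41.6% for erg. Cells with an etv2 UMI after thinning (473 of the 1289 thinned cells) held a UMI of 1.87 of the 6 members on average, against 0.642 in cells with 0. No member was detected in 39.5% of the thinned cells and 3 or more in 14.0%. The latter share was 42.9% of endothelial-like and 30.3% of EPC-like cells. These groups differ in cell type, however: of the 233 cells with 4 or more etv2 UMIs, 138 were EPC-like and 66 endothelial-like, and of the 816 cells with 0, 2 were EPC-like and 72 endothelial-like.

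**Figure D2:**
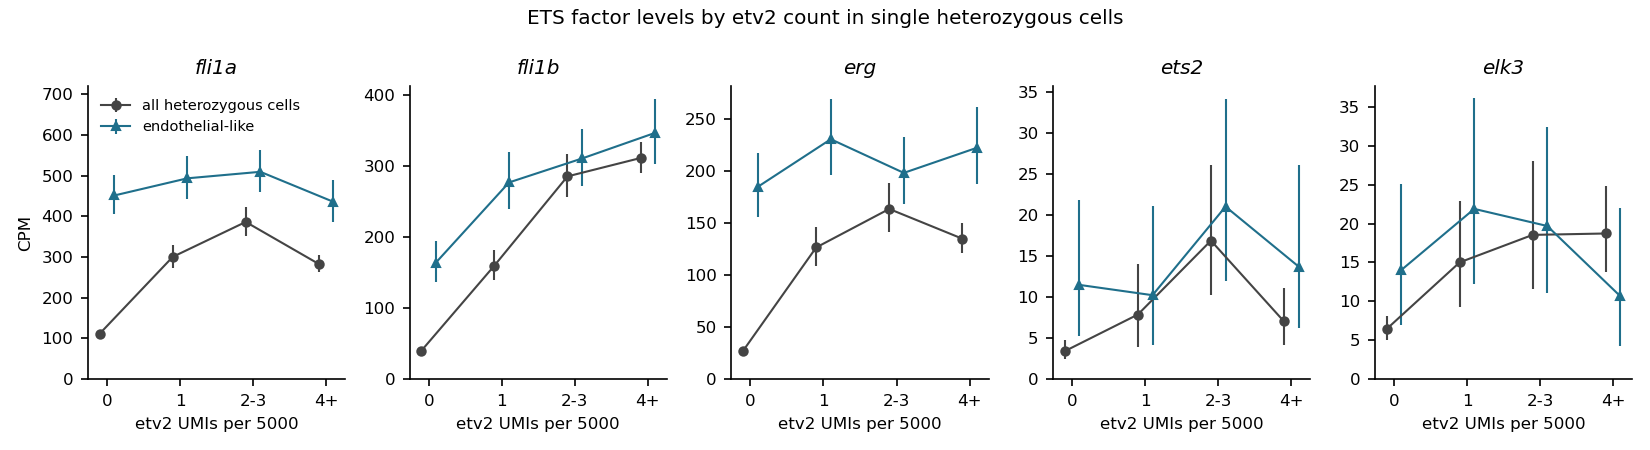
Level in CPM with exact Poisson 95% intervals (y axis) of the ETS genes in heterozygous cells grouped by etv2 UMIs after thinning to 5000 UMIs (x axis), for all cells and for endothelial-like cells. In endothelial-like cells fli1b goes from 164 CPM at 0 to 347 CPM at 4 or more etv2 UMIs, and fli1a is 451 and 435 CPM.

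Within endothelial-like cells, where the groups held 72, 66, 76 and 66 cells, fli1b alone was called among the 3 members with enough counts. Its level was 164 CPM (137 to 195) at 0 etv2 UMIs, 277 CPM (239 to 319.6) at 1, 311 CPM (273 to 353) at 2 to 3 and 347 CPM (304 to 395) at 4 or more, and its share of cells went from 55.6% to 86.4%. The ratio of the last to the first group was 2.11 (1.69 to 2.64), on 228 and 129 counts. fli1a was 451, 493, 509 and 435 CPM, a ratio of 0.965 (0.823 to 1.13), with 88.9% to 89.4% of cells positive in the first and last groups. erg was 185, 231, 198 and 222 CPM, a ratio of 1.20 (0.95 to 1.52). Thus 1 of 3 members was called, beside 2.59% of the 2392 genes compared and a median of 1.01 over them. The 72 endothelial-like cells at 0 held 44 etv2 counts before thinning (56.1 CPM). In EPC-like cells only 2 cells had 0 etv2 UMIs after thinning. From 1 to 2 to 3 to at least 4 etv2 UMIs, their fli1b was 261, 288 and 338 CPM and their fli1a 302, 222 and 258 CPM, from 8, 30 and 138 cells.

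Over single thinned cells Spearman's coefficient, given as a description since the cells share a library, was 0.540 for fli1b with etv2, 0.370 for erg with etv2 and 0.362 for fli1a with etv2. Within endothelial-like cells it was 0.271, 0.107 and -0.0522. Within the 178 thinned EPC-like cells it was 0.135 for fli1b, 0.0511 for erg and 0.105 for fli1a. fli1b thus had the highest value in each set, whereas erg and fli1a changed places in EPC-like cells.

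The homozygous library had lower levels of the 3 members with most counts. fli1a had 40.6 CPM (35.8 to 45.9) in homozygous and 180.4 CPM (174 to 187) in heterozygous cells, fli1b 29.6 CPM (25.5 to 34.2) and 116 CPM (111 to 121), and erg 3.98 CPM (2.58 to 5.88) and 67.2 CPM (63.3 to 71.2). The ratios were 0.225 (0.197 to 0.256), 0.256 (0.219 to 0.298) and 0.0593 (0.0382 to 0.0880). erg thus had the lowest ratio of these members, with 25 counts in 16 of 473 homozygous cells. elk3 at 0.557 (0.380 to 0.797; 37 and 179 counts) was not called, and ets2 at 1.49 (1.04 to 2.11; 52 and 94 counts) was higher in the homozygous cells. ets1 had 1 count against 17. Of the 5 members with enough counts, 3 were called lower, beside 8.86% of 9471 genes, and the medians were 0.256 for members and 0.985 for all genes. With no minimum of counts 4 of 6 members were at or below the limit, ets1 being added, beside 23.6% of 19104 genes. etv2 itself had 95 counts against 4908, a ratio of 0.0522. How far its 3′ counts, and those of the neighbouring fli1b, depend on the trapped allele was not tested.

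Unthinned shares of cells with a UMI were 29.0% in homozygous and 59.1% in heterozygous cells for fli1a, 12.3% and 41.9% for fli1b, 3.38% and 30.8% for erg, 6.77% and 10.3% for elk3 and 8.25% and 5.04% for ets2. After thinning they were 15.4% and 46.0% for fli1a, 9.32% and 32.9% for fli1b, and 1.76% and 21.6% for erg. In whole-library values fewer cells of a type and less RNA per cell cannot be told apart. Endothelial-like and EPC-like cells, which held most counts of these genes, were 6 of the 473 homozygous cells.

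The heterozygous class levels were therefore weighted to the class shares of the homozygous library, which gives the level each gene would have had with unchanged levels per class. Free RNA was not subtracted here. It was estimated at 2.88 CPM of erg and 6.16 CPM of fli1a in a heterozygous cell, against 0.477 and 0.834 CPM in a homozygous cell. The weighted erg level was 12.9 CPM. The part of free RNA in the weighted ratios of members and gene lists was not tested. Observed over weighted levels, with intervals from the homozygous counts alone, were 0.309 (0.20 to 0.456) for erg, 0.535 (0.471 to 0.604) for fli1a, 0.813 (0.573 to 1.12) for elk3, 1.25 (1.07 to 1.44) for fli1b and 3.82 (2.86 to 5.01) for ets2. Only erg was called lower among the 5, beside 4.47% of all genes, and fli1b changed direction. etv2 was at 0.115 (0.0933 to 0.141). The weighted level of ets2 rests on few heterozygous counts, among them 8 in RBC-like and 2 in LPM-like cells. The interval of ets2 leaves out their counting error. The value of fli1b joins classes that went different ways. LPM-like cells held 80 and cardiomyocyte-like cells 38 of its 186 homozygous counts, both at a higher level than in the heterozygous library, whereas its ratio was 0.105 in RBC-like cells (2 and 30 counts) and 0.535 in tailbud-like cells. The homozygous cardiomyocyte-like cells with fli1b had few cardiac transcripts, as given further on, so the class level used as their reference need not apply to them.

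**Figure D3:**
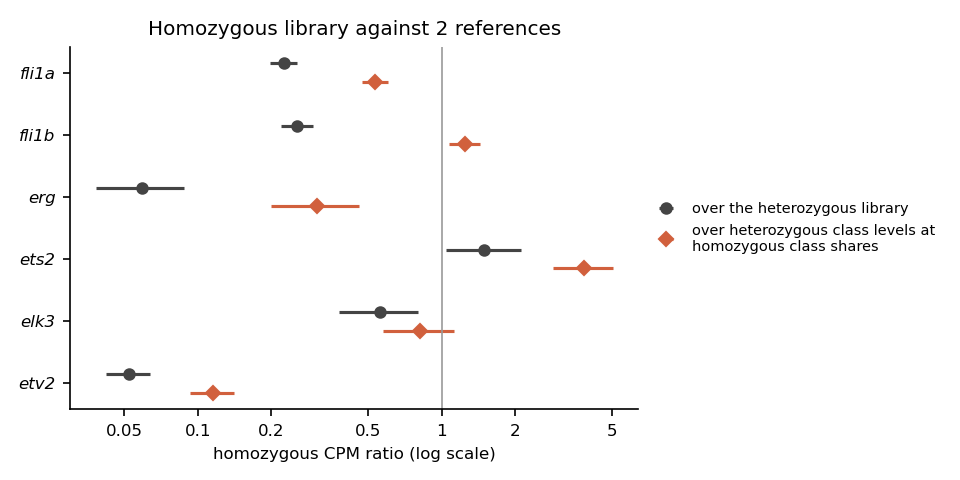
Ratio of homozygous to heterozygous CPM over all kept cells, and of observed to class-weighted CPM (x axis, log scale), for the ETS genes and etv2. Bars are 95% intervals, exact for the former ratio and from the homozygous counts alone for the latter. erg lies at 0.0593 and 0.309, and fli1b crosses from 0.256 to 1.25.

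In RBC-like cells, present in both libraries, fli1a was at 108 CPM in 257 heterozygous and 50.7 CPM (41.7 to 61.1) in 125 homozygous cells, a ratio of 0.470 (0.377 to 0.582; 372 and 111 counts). erg was at 13.9 and 2.29 CPM, a ratio of 0.164 (0.0510 to 0.410; 48 and 5 counts). Both members with enough counts were called lower, beside 2.48% of 4997 genes. Clustering without regression of depth moved the fli1a ratio to 0.555, past the limit of a call, and the erg ratio to 0.316. ets2 went the other way, with 2.32 CPM (8 counts) in heterozygous and 11.9 CPM (26 counts in 17 cells) in homozygous RBC-like cells, a ratio of 5.12 (2.25 to 13.1) that falls under the minimum of counts. The summed endothelial markers were 201.4 CPM in heterozygous and 98.3 CPM in homozygous RBC-like cells (0 and 3 of 11 at 0), the EPC markers 1573 and 1071 CPM and the macrophage markers 349 and 296 CPM (0 and 6 of 10 at 0). The RBC markers themselves were 27164 and 35069 CPM, and the median depths 14311 and 18429 UMIs, so the RBC-like cells of the 2 libraries differed in these respects too. The part of these differences in the lower fli1a and erg was not tested. Subtraction of the empty-droplet profile gave 0.479 for fli1a and 0.160 for erg.

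The unnamed cells, which also carried RBC markers, showed the same order. fli1a was at 101 and 53.0 CPM, a ratio of 0.523 (0.396 to 0.684), short of the call, and erg at 26.0 and 6.92 CPM, a ratio of 0.266 (0.117 to 0.535), the only call among 3 members beside 3.07% of genes. The erg ratio was 0.0888 without the cells of highest depth. fli1b was at 14.7 and 13.1 CPM, a ratio of 0.889 (0.472 to 1.61). Endothelial markers summed to 274 and 94.5 CPM in these cells, EPC markers to 1484 and 902 CPM and RBC markers to 3259 and 5226 CPM. The cluster is therefore mixed and is not a separate check on the RBC-like values. The part of these markers was not tested.

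LPM-like cells differed in that fli1b was higher in the homozygous library. The level was 22.0 CPM (13.03 to 34.8; 18 counts in 10 of 75 cells) in heterozygous and 76.5 CPM (60.6 to 95.2; 80 counts in 23 of 83 cells) in homozygous cells, a ratio of 3.48 (2.07 to 6.16). It was the only member with enough counts in this class, where 2.45% of 2853 genes were at 2 or more and 2.14% at 0.5 or less. The share of cells with a UMI was 13.3% and 27.7%, or 11.6% and 19.0% after thinning, so that the positive cells also held more counts each. In the same cells fli1a was at 26.9 and 14.3 CPM (0.533, 0.257 to 1.08), and etv2 at 352 and 20.1 CPM (0.0570). fli1a made up 55.0% of the fli1 counts of heterozygous but 15.8% (9.12 to 24.7) of those of homozygous LPM-like cells. The fli1b ratio was 1.81 when the libraries were clustered separately, where 133 heterozygous and 86 homozygous cells were LPM-like. The ratio thus depends on which heterozygous cells are given to this class. It was between 3.15 and 5.72 in the other settings, including the omission of the cell with the most counts. Of 4 neural crest markers 3 were at 0 in the homozygous LPM-like cells, with 0.956 CPM in sum.

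Homozygous LPM-like cells with fli1b also carried progenitor transcripts. The 10 EPC markers, among them tal1 and lmo2, summed to 4573 CPM (4351 to 4803) in the 23 homozygous LPM-like cells with a fli1b UMI and to 1479 CPM (1391 to 1573) in the 60 without. Their median depths were 14410 and 11893 UMIs. etv2 was 20.0 and 20.1 CPM and the endothelial markers were 166 and 158 CPM in these cells. In heterozygous LPM-like cells the EPC markers were 9697 CPM in 10 cells with fli1b and 2267 CPM in 65 without, and etv2 was 1119 and 220 CPM. fli1b thus went with EPC markers in both libraries, and with etv2 in the heterozygous cells. For fli1a the gap in EPC markers was smaller but in the same direction. Cells with and without a fli1a UMI had 4567 and 3059 CPM in the heterozygous and 3283 and 2387 CPM in the homozygous library. In the heterozygous cells etv2 was 313 CPM with and 361 CPM without fli1a.

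**Figure D4:**
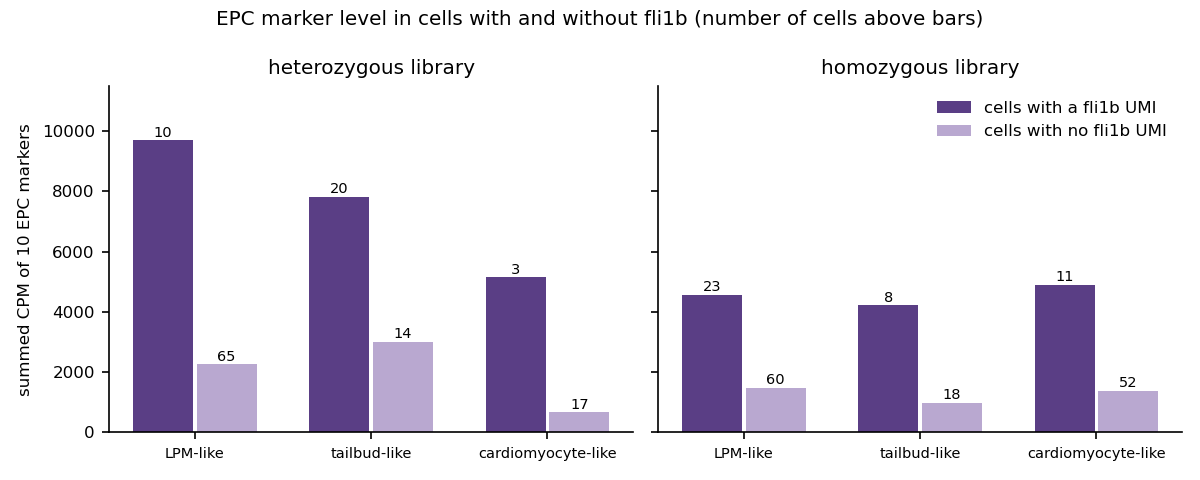
Summed CPM of 10 EPC markers (y axis, from 0) in LPM-like, tailbud-like and cardiomyocyte-like cells with and without a fli1b UMI, in both libraries, with cell numbers above the bars. In each class and library the cells with fli1b have the higher sum, for example 4573 against 1479 CPM in homozygous LPM-like cells.

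Tailbud-like cells had fli1b at 128 CPM (42 counts in 34 cells) in the heterozygous and 68.4 CPM (43.4 to 103; 23 counts in 26 cells) in the homozygous library, a ratio of 0.535 (0.307 to 0.910) and no call, beside 2.5% of genes called. fli1a had 21 and 6 counts, and etv2 was at 0.0185 of its heterozygous level. EPC markers summed to 4216 CPM in 8 homozygous tailbud-like cells with fli1b and 975 CPM in 18 without, and to 7832 and 3004 CPM in 20 and 14 heterozygous cells. They also summed to 10714.5 CPM in 11 heterozygous cells with fli1a and 3333 CPM in 23 without. In the homozygous library these sums were 2869 CPM in 3 cells and 1994 CPM in 23. In the pooled clustering the direction of fli1b between libraries was therefore opposite in LPM-like and tailbud-like cells. The tailbud-like ratio rests on few counts and was 0.634 without the cell with the most counts.

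**Figure D5:**
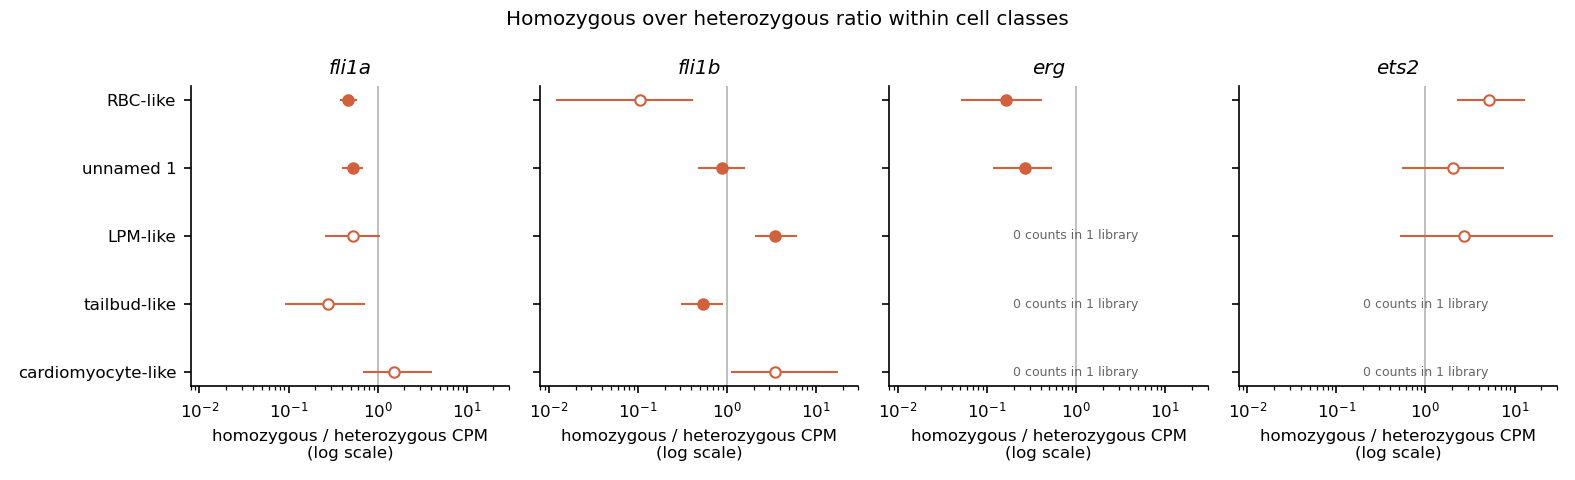
Ratio of homozygous to heterozygous CPM (x axis, log scale) of fli1a, fli1b, erg and ets2 within 5 classes, with exact 95% intervals. Filled points have at least 50 counts and open points fewer. fli1a lies at 0.470 in RBC-like cells and fli1b at 3.48 in LPM-like and 0.535 in tailbud-like cells.

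There were 20 heterozygous but 63 homozygous cardiomyocyte-like cells. The homozygous cells held 39 counts of fli1a (81.2 CPM), 38 of fli1b (79.1 CPM), 7 of erg and 8 of ets2, against 7, 3, 0 and 0 counts. The ratios were 1.54 (0.682 to 4.09) for fli1a and 3.51 (1.11 to 17.8) for fli1b. The homozygous cells with these transcripts were not those with cardiac transcripts: the 15 cells with fli1a had 231 CPM of cardiomyocyte markers and 5269 CPM of EPC markers, and the 48 without had 7468 and 790 CPM. For fli1b the 11 cells with a UMI had 559 CPM of cardiomyocyte and 4895 CPM of EPC markers, and the 52 without had 6622 and 1377 CPM. Median depths with and without a UMI were 10201 and 5358 UMIs for fli1a and 11072 and 5613.5 UMIs for fli1b. The groups therefore differ in depth as well.

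When the homozygous library was clustered alone, 31 of these cells and 1 EPC-like cell formed a cluster of 32 led by pvalb9, ascl1b, cd9a, cdh6, sox7 and egfl7, which was left unnamed. It held 39 counts of fli1a (128 CPM), 43 of fli1b (141 CPM), 7 of erg (22.9 CPM), 8 of ets2 (26.2 CPM) and 5 of etv2 (16.4 CPM). tal1 was at 969 CPM, the vascular transcription factor gene sox7 at 314 CPM and the endothelial secreted factor gene egfl7 at 305 CPM. This cluster was described after its values were seen. It held 39 of the 255 fli1a counts and 7 of the 25 erg counts of the kept homozygous cells.

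The 6 homozygous cells of vascular name in the pooled clustering, 4 EPC-like and 2 endothelial-like, were each examined. With the homozygous library clustered alone none kept that name. Of the EPC-like cells 3 fell in the LPM-like cluster and 1 in the unnamed cluster described above. The 2 endothelial-like cells fell in an unnamed cluster of 144 cells. They had 629 CPM of endothelial and 7577 CPM of EPC markers, against 3181 and 5424 CPM in heterozygous endothelial-like cells. The fli1a counts of the 6 cells were 0, 1, 2, 1, 3 and 2, their fli1b counts 5, 1, 5, 0, 12 and 3, and their erg counts 0, 0, 1, 2, 0 and 1. Their etv2 counts in the same order were 0, 8, 20, 20, 0 and 7, and the cell with 12 counts of fli1b had none of etv2. All 6 held at least 14 counts of tal1, whereas cdh5 reached 1 count at most. Among all homozygous cells, the 37 with an etv2 UMI had 79.9 CPM of fli1b, 60.4 CPM of fli1a and 9.74 CPM of erg. The 436 without had 25.2, 38.9 and 3.47 CPM. The erg values rest on 5 counts in 4 cells and 20 counts in 12 cells, and the 37 cells include those of vascular name with etv2 listed above. EPC-like cells held 48 and endothelial-like cells 7 of the 95 homozygous etv2 counts.

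Other genes of the family and genes with known ETS input were examined as lists. Of 34 names of ETS genes 28 were in the table, and 12 of the 21 that are neither members nor etv2 had enough counts. In endothelial-like cells 6 of the 12 were called higher, beside 10.2% of all genes, and 3 lower, beside 15.9%. The highest were fev at 5.71, erfl3 at 4.92 and erf, known in mammals as a repressor, at 2.43, and the lowest the myeloid regulators spi1a at 0.0183 and spi1b at 0.0761. In EPC-like cells 2 were higher and 5 lower, beside 7.27% and 18.5% of all genes, and in cells with 4 or more etv2 UMIs 3 were higher, fev among them at 9.41, and 4 lower, beside 11.5% and 15.6%. In the homozygous library 0 were higher and 5 lower, beside 4.58% and 8.86%. The lowest were spi1a with 231 heterozygous and 0 homozygous counts, fev at 0.118 and ef1, which is elf1 in the reference gene table, at 0.259. With heterozygous levels weighted to the homozygous class shares 2 of the 12 remained at 0.5 or less, spi1a and fev (0.407), beside 4.47% of all genes, and ef1 was at 0.709. spi1b turned from 0.390 to 1.12. The medians of the 12 were 1.85, 0.756, 1.10 and 0.773 in the 4 comparisons and 0.878 with the weighting.

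Of 22 endothelial genes with known ETS input in vertebrates, 18 had enough counts. Of this list cdh5, kdrl, tie1, ecscr, clec14a, cldn5b and she are also on the endothelial marker list that named the class. In the same way tal1, lmo2 and gata2a are EPC markers, and klf17 and gata1a of the erythroid list are RBC markers. Calls of these genes between classes thus follow in part from how the classes were formed and named. In endothelial-like cells 15 were called higher and 0 lower (median 5.48), beside 10.2% and 15.9% of all genes, led by the Notch ligand dll4 at 31.2, the junction gene cldn5b at 24.1 and the VEGF receptor kdrl at 12.2. In EPC-like cells 7 were higher and 3 lower (median 1.67), beside 7.27% and 18.5%, and at 4 or more etv2 UMIs 15 were higher and 0 lower (median 5.39), beside 11.5% and 15.6%. In the homozygous library 16 were called lower and 0 higher (median 0.0719), beside 8.86% and 4.58%, with cdh5, the gene of VE-cadherin, at 0.0178, while gata2a at 1.05 and notch1b at 0.891 were not called. With the class weighting 11 of the 18 were at 0.5 or less (median 0.333), beside 4.47%, with cdh5 at 0.133. The medians of the list without weighting lay beside 0.928, 0.906, 0.964 and 0.985 over all genes. Of 4 erythroid genes with known ETS input, the 2 with enough counts were called lower in endothelial-like cells (median 0.194, beside 15.9% of genes), in EPC-like cells (median 0.0718, beside 18.5%) and at 4 or more etv2 UMIs (median 0.0707, beside 15.6%). In the homozygous library 1 of 3 was called higher, gata1a at 2.11, beside 4.58%, and the median was 1.58. With the class weighting 0 of 3 were called and the median was 0.995.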

How the data were processed

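Cells were captured with the Chromium 3′ system. The authors aligned reads and counted UMIs with Cell Ranger (2.0.2 in the submitters' processing notes) against GRCz10, and deposited raw counts of all barcodes, 19256969 heterozygous and 7244035 homozygous UMIs in total. Reads were not reprocessed. A 3′ count can miss a gene whose annotated end is wrong, and an antisense or duplicate gene can share reads.

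Cells were called by the limits given above. Counts were normalised to 10000, total UMIs and mitochondrial share were regressed out, and 13 components, 30 neighbours and resolution 0.6 were used in Seurat 5.3.0 (R 4.3.3), with seed 20 and ETS family genes left out. A marker counted as enriched at 2-fold, and a name required 3 enriched markers. Summed counts were compared with numpy 2.4.6, scipy 1.17.1 and pandas 2.3.3 in Python 3.11.15, and figures were drawn with matplotlib 3.10.9. Free RNA was estimated from 15 hemoglobin genes in named classes other than RBC-like, with empty droplets taken as barcodes of 1 to 100 UMIs. The intervals were tested on simulated counts. Comparisons required at least 20 cells of a class in both libraries.

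All 6 members and etv2 were named, with the 3 genes most like each member and at most 3 of the highest and lowest called genes of each list. Genes that lead clusters, markers, and gata2a, notch1b, sox7, egfl7 and, in the homozygous comparison, spi1b were named after their values were seen. The lists were the ETS family, endothelial genes and erythroid genes with known ETS input, and the cell type markers. The members and lists were chosen with earlier results of these data known. Alternatives concerned cell calling, clustering, free RNA, the weight of cells, depth, the fold of a call and the etv2 groups. Sequences are not used here.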

Additional observations from a re-analysis of the deposited data

Results flagged for a closer look

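The homozygous over heterozygous ratio of fli1b was 3.48 in LPM-like cells and 0.535 in tailbud-like cells. The 2 classes moved in opposite directions under the same contrast, each with an interval that leaves out 1. This brought the pair to attention. The tailbud-like ratio was 0.634 without the cell with the most counts. With the libraries clustered separately the LPM-like ratio was 1.81, and no cluster was named tailbud-like. The difference between the classes was not tested, since each genotype has 1 library.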

How the results depend on the processing

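No paired analysis was possible because each genotype has 1 library, and for the same reason no library could be left out. With a 3-fold limit 1 member was called in EPC-like cells and 2 in cells with 4 or more etv2 UMIs. The share of all genes past this limit was not taken, so these counts are not read as a result about the members. Restricted to endothelial-like cells, the etv2 comparison called 1 member, and fli1a turned from 2.54 to 0.965. With heterozygous levels weighted to the homozygous class shares 1 member was called lower, and fli1b turned from 0.256 to 1.25. These changes follow from which cells and limits enter. All other alternatives kept the number of called members within 1.5 times. Without a minimum of counts 4 members were called lower, beside 23.6% of genes. Of 213 ratios of single members under alternatives, 193 moved by less than their counting error, 18 by more and 2 reversed. The 193 include the homozygous over heterozygous ratios without a minimum of counts, which cannot differ from the main values. Another limit on UMIs per barcode could not move the etv2 comparison, which uses cells thinned to 5000 UMIs, and its 10 ratios are not counted. The ratios within classes were added to the alternatives after seeing the data. The etv2 comparison within EPC-like cells was not run, as only 2 cells had 0 etv2 UMIs. ets1 was too shallowly counted for any ratio to be read.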
